A study of Daphnia magna with 80 samples.

Results

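A set of 59 genes of the water flea Daphnia magna had counts in males and almost none in females. The genes were chosen by level in whole animals: a median of at least 2 CPM (counts relative to the library's total gene count, in the usual unit) over 37 male libraries and a median under 0.1 CPM over 39 female libraries. Of the 26646 genes in the count table, 12591 met the male limit and 59 met both. Because the choice used the level in each sex, the difference between the sexes is described below and not tested. What the choice did not use is the order of the ages, so the tests concern age within each sex.

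All animals were of strain Bham2, kept at normal conditions in a high-hardness COMBO medium and fed the green alga Chlorella vulgaris. Whole animals were flash frozen with an empty brood pouch, and mRNA libraries were sequenced from samples of about equal dry mass. Males came from 13 ages between 8 and 40 days, with 3 libraries at 11 ages and 2 at 2 ages. Females came from 15 ages between 10 and 80 days, with 3 libraries at 10 ages, 2 at 4 ages and 1 at 70 days. The males are thus all 40 days old or younger, and every female of 45 days or more lacks a male of the same age.

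Daphnia females can produce daughters and sons of the same genotype, because sex in this animal follows environmental cues rather than sex chromosomes. Juvenile hormone signalling is tied to the production of males, and the transcription factor Doublesex1 is expressed in males of D. magna and needed for male traits. Males differ from females in the testis, in long first antennae and in limb hooks used in mating. The deposited files give gene IDs only, and 0 of the 26646 matched the gene reference at hand, so the 59 genes carry no name or role and are cited by ID.

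Libraries held between 1599627 and 33480868 gene counts in males and between 2242215 and 27789716 in females. Whether replicate libraries stem from separate cultures or animals is not stated in the labels. The p-values therefore reflect only the spread among these libraries, part of which may be technical. In whole-animal RNA, fewer cells of a type and less RNA per cell cannot be told apart. A block of 9 abundant genes, each above 1% of all counts, took 19.7% to 74.8% of the counts of a male library and 12.8% to 66.1% of a female one, which moves CPM by total count. Levels by library are therefore also given as scaled CPM, for which the library total is multiplied by the trimmed-mean (TMM) scaling factor. No marker genes of a tissue could be checked without names, so the sources of the RNA within the animal were not tested.

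A library titled as a female of 20 days, which the labels mark as mislabelled and which entered no comparison, had counts for all 59 genes and a summed level of 920.6 CPM. The 37 male libraries lay between 236.7 and 1839 CPM, and the 39 female libraries between 1.30 and 44.3 CPM. The other 2 libraries that the labels exclude, both titled male, had summed levels of 4.5 and 2.099 CPM with counts for 22 and 21 of the genes. All 3 excluded libraries thus lay in the range of the sex opposite to their titles.

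The male medians ran from 2.04 to 96.2 CPM. There were 3 genes at 50 CPM or more, 12 between 10 and 50, 12 between 5 and 10, and 32 between 2 and 5. The female median was 0 for 41 genes. The 5 most abundant genes held 45.7% of the summed scaled CPM in males. In all, the 59 genes had 586365 counts in males and 7523 in females. A count was found in every male library for 48 genes and in every female library for 0. For 39 genes the lowest male library lay above the highest female library in scaled CPM. For the other 20 genes the sexes overlapped. The choice of genes by level in each sex favours such a separation, and its share among all genes was not computed.

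APZ42_010571 had the highest male median. Its level was 36.0 scaled CPM in the lowest male library, 98.2 in the median one and 225.0 in the highest, against 0 in the lowest female library, 0.0382 in the median one and 3.89 in the highest. APZ42_019537 ran from 52.2 through a median of 107.8 to 203.3 scaled CPM in males, and its highest female library had 3.23. APZ42_006565 ran from 25.3 through a median of 69.5 to 210.7 scaled CPM in males, with a female maximum of 2.11. All 3 were separated by sex without overlap, which the choice of genes by level in each sex favours. A single female library, replicate 2 of 40 days, held the female maximum of each.

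The next genes by male median were APZ42_010183, APZ42_004383, APZ42_017540, APZ42_024940 and APZ42_021852. Their male medians were 47.5, 44.9, 42.7, 25.2 and 25.1 CPM. APZ42_010183 was the steadiest of the 59 genes among males of one age, with a within-age SD of 0.21 on the scale log2(scaled CPM + 0.5). For the 59 genes this SD ran up to 0.80. The lowest male library of APZ42_010183 had 26.4 scaled CPM and the highest 68.9, and no female library exceeded 1.78.

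At the male limit, the 2 genes just inside were APZ42_001273 at 2.035 CPM and APZ42_015814 at 2.047 CPM, and the 2 just outside were APZ42_030276 at 1.997 CPM and APZ42_018258 at 1.987 CPM. At the female limit, APZ42_017671 and APZ42_013472 were just inside at medians of 0.0996 and 0.0974 CPM, and APZ42_003649 and APZ42_023995 just outside, both at 0.1008 CPM. Among the 59 IDs, 5 pairs had numbers at most 10 apart. Both genes of the pair APZ42_025642 and APZ42_025648 had a negative slope with age in males, of -0.64 and -0.63 log2 per 10 days, while the pair APZ42_017671 and APZ42_017676 had slopes of 0.16 and -0.47. Positions on the genome were not analysed here, and the counts of near-identical copies, or of genes that overlap, are uncertain.

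**Figure D1:**
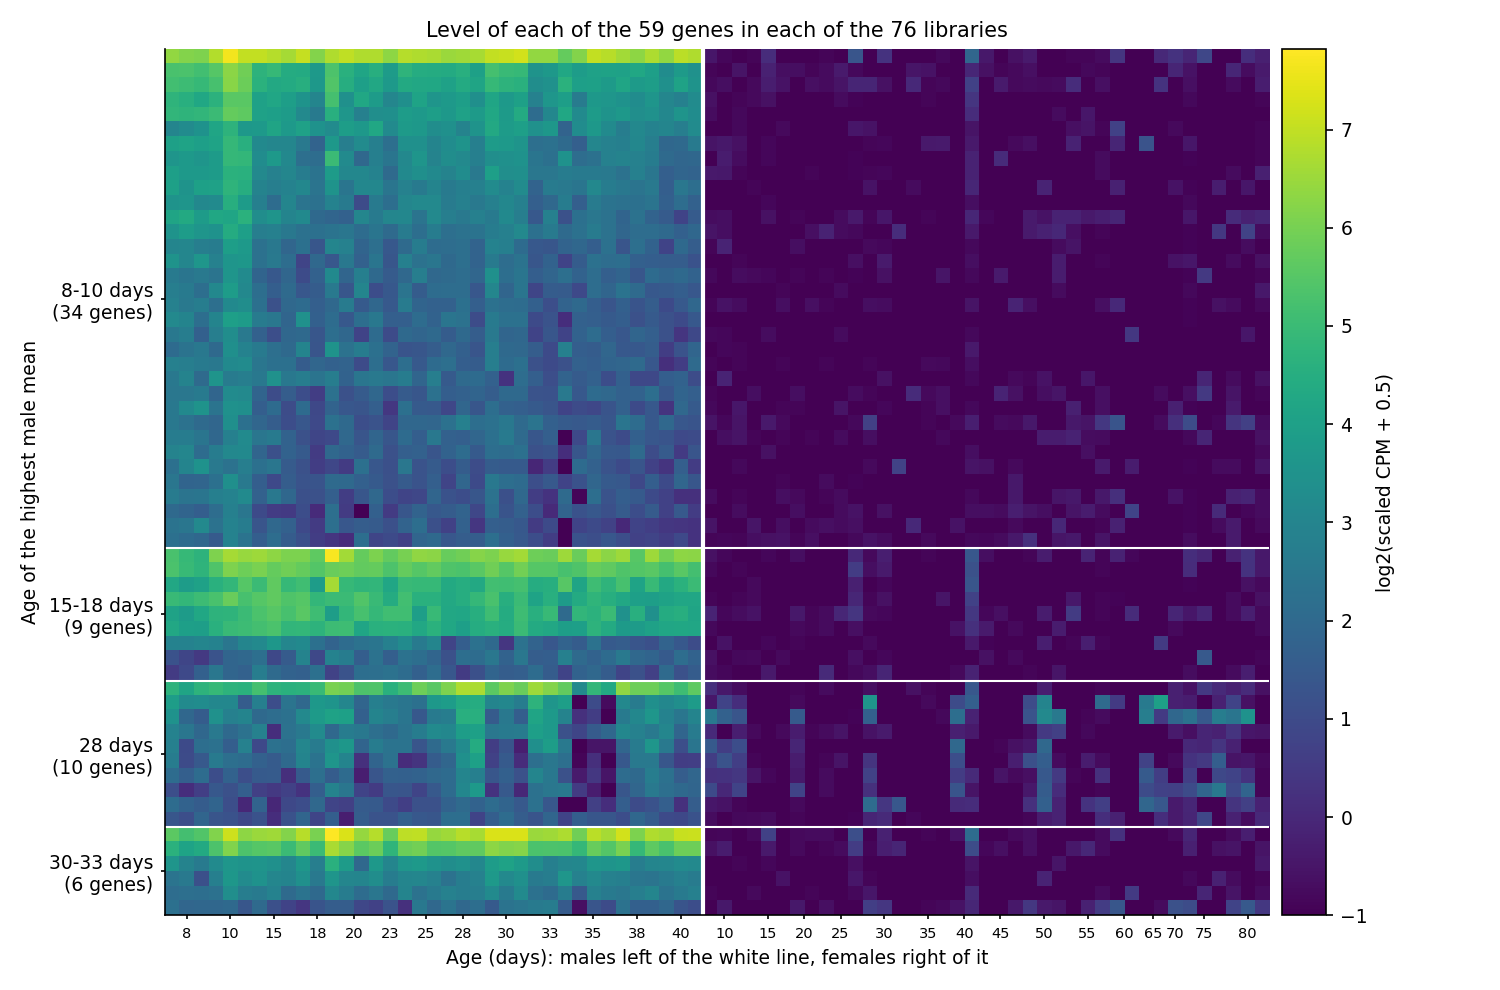
Level of each of the 59 genes (rows) in each of the 76 libraries (columns), as log2(scaled CPM + 0.5), with the 37 male libraries left of the white line and the 39 female libraries right of it, each by age in days. Rows are grouped by the age of the highest male mean (34, 9, 10 and 6 genes) and ordered by male median within a group. Most rows are bright across the male libraries, the 10 genes highest at 28 days are dark in males of 35 days, and most signal in females lies in the 10 genes highest in males of 28 days and in the column of replicate 2 at 40 days.

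The summed level of the 59 genes had its highest mean in males of 10 days. The mean was 717.7 scaled CPM ± 64.1 (SD, n = 3) at 8 days, 1193 ± 278.1 at 10 days, 851.9 ± 92.1 at 15 days and 951.7 ± 405.3 at 18 days. It was 831.8 ± 87.5 at 28 days, 1018 ± 38.8 at 30 days, 674.5 ± 156.2 at 35 days and 693.8 ± 73.4 at 40 days (SD, n = 3 each). The 3 libraries of 10 days, at 921.1, 1182 and 1477, lay above the 3 of 8 days, at 676.7, 684.9 and 791.6. At 18 days the libraries were widely spread, from 596.0 to 1393. No test was made of these sums, in which the few most abundant genes weigh most.

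**Figure D2:**
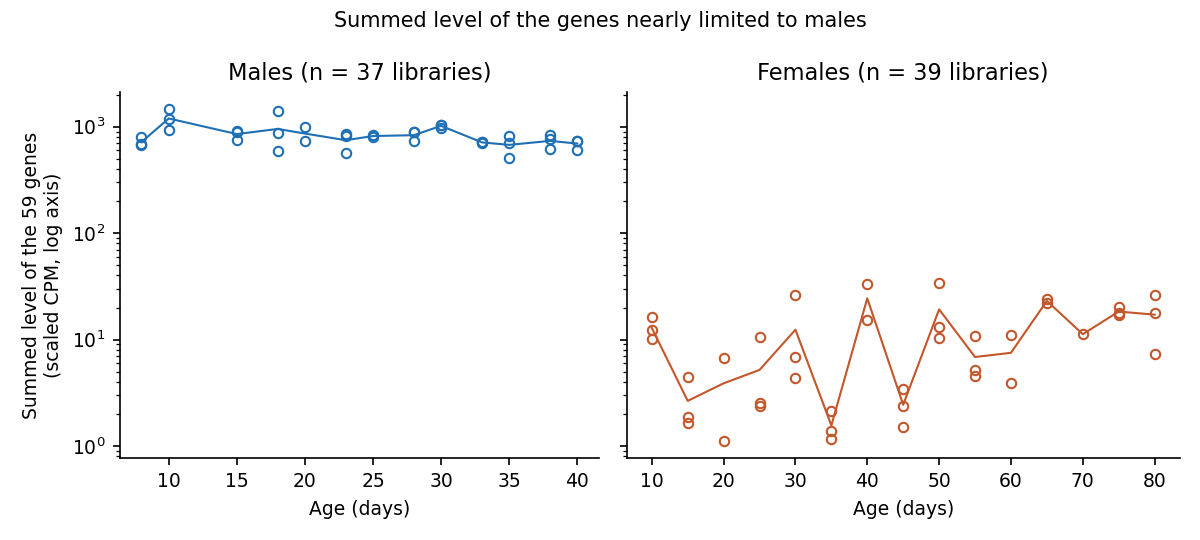
Summed level of the 59 genes in each library against age in days, for males (left) and females (right), in scaled CPM on a log axis. Circles are libraries and lines join the means of each age. The 37 male libraries sit between 508.1 and 1477 and the 39 female libraries between 1.11 and 34.2.

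Most of the genes were lower in older males. Across the 37 male libraries, 34 of the 59 genes fell with age and 1 rose (edgeR quasi-likelihood F-test, with p adjusted by Benjamini-Hochberg over 16606 genes and called under 0.05). The 34 genes are 57.6% of the 59. Among all genes tested, 17.5% fell and 15.2% rose, and among the genes with a male median of at least 2 CPM 19.5% fell and 17.2% rose. The median slope of the 59 genes was -0.32 log2 per 10 days, beside 0.0049 for all genes tested. Single slopes ran from -0.82 to 0.37, and 46 of 59 were negative.

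APZ42_015814 had the steepest fall. Its 3 libraries of 8 days had 4.63, 5.03 and 8.39 scaled CPM and its 3 of 10 days had 4.48, 5.95 and 7.02. At 28 days they had 0.820, 1.14 and 2.81, and at 40 days 0.710, 0.786 and 0.838. The libraries of 40 days all lay below those of 8 and 10 days. Its slope was -0.82 ± 0.098 log2 per 10 days (SE, adjusted p = 2.76e-08, edgeR).

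APZ42_006276 also fell, at a higher level. It averaged 17.0 scaled CPM ± 3.02 at 8 days, 20.1 ± 3.37 at 10 days, 9.35 ± 1.96 at 15 days, 6.13 ± 0.657 at 28 days and 2.01 ± 0.689 at 40 days (SD, n = 3 each). The lowest library of 8 to 10 days, at 13.8, lay above each library of every later age, of which the highest had 11.2. The slope was -0.78 ± 0.088 log2 per 10 days (SE, adjusted p = 7.47e-09, edgeR).

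APZ42_017540 was the gene that rose. It averaged 22.8 scaled CPM ± 4.60 at 8 days, 28.8 ± 7.14 at 15 days, 92.2 ± 20.2 at 28 days, 71.3 ± 20.0 at 33 days, 18.6 ± 9.85 at 35 days and 42.2 ± 8.00 at 40 days (SD, n = 3 each). The course was not a straight line, since the 3 libraries of 35 days, at 8.38, 19.5 and 28.0, lay within or below the range of the youngest males. Its slope over all ages was 0.37 ± 0.12 log2 per 10 days (SE, adjusted p = 0.0145, edgeR), and it was 0.21 and not called without the males of 8 and 10 days.

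The 3 most abundant genes were not among those that fell. The slopes of APZ42_010571, APZ42_019537 and APZ42_006565 were 0.18, -0.07 and 0.04 log2 per 10 days, with adjusted p of 0.125, 0.422 and 0.760 (edgeR). Without the males of 8 and 10 days, a choice made after the values were seen, 16 of the 59 genes fell and 0 rose, where 7.72% of all genes tested fell and 5.65% rose. The median slope of the 59 genes was then -0.20, beside -0.0017 for all genes. All 6 libraries of 8 and 10 days belonged to the larger of 2 sets of libraries that differ in the ratio of 2 spike-in RNAs. Within that set 31 of the 59 genes fell and 1 rose over 24 male libraries, where 9.41% of all genes tested fell and 9.62% rose, and the median slope of the 59 was -0.43. Within the other, with no male under 15 days, 10 of the 59 fell and 1 rose over 13 libraries, where 10.45% of all genes fell and 9.07% rose, and the median slope of the 59 was -0.11.

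**Figure D3:**
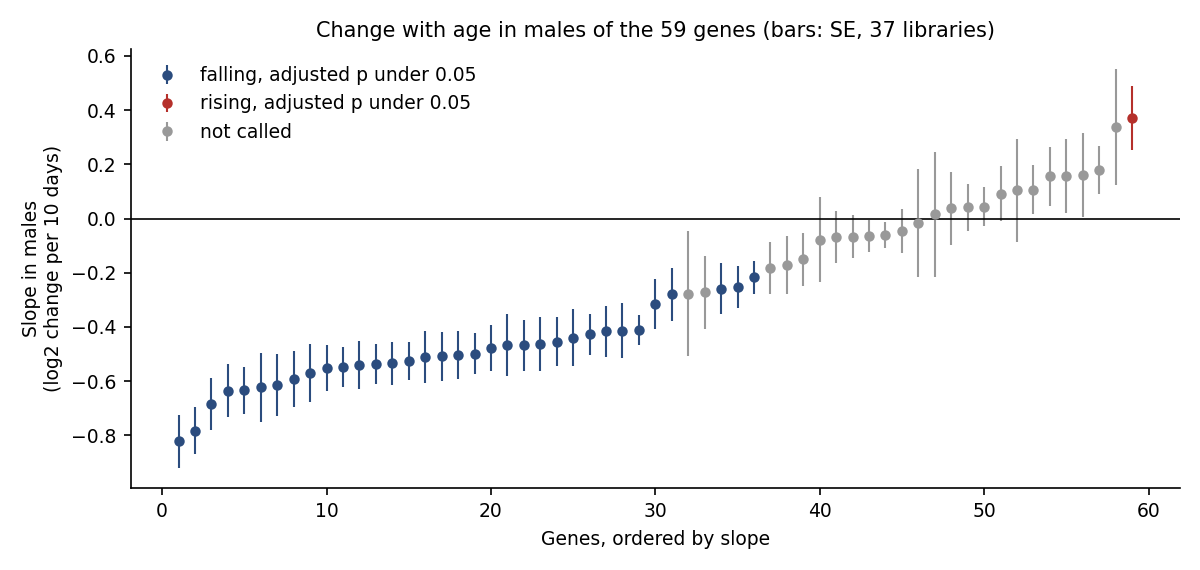
Slope with age in males of each of the 59 genes, in log2 change per 10 days, ordered from the lowest to the highest, with SE bars (37 libraries). The 34 genes that fell with an adjusted p under 0.05 lie between -0.82 and -0.22, and the gene that rose lies at 0.37.

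Comparisons among the youngest males gave calls in both directions. At 10 days against 8 days, a comparison added after the values were seen, 2 of the 59 genes were higher and 0 lower (edgeR, adjusted p under 0.05), where 2.07% of all genes tested were higher and 0.153% lower, so that the count is close to the background. The median difference of the 59 genes was 0.53 on the log2 scale, beside 0.0071 for all genes, and 49 of 59 differences were positive. With library sizes set by spike-in RNA the direction of these counts turned, to 0 higher and 4 lower of the 59 and to 151 higher and 4741 lower of all genes tested.

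APZ42_006565 had 69.5, 87.8 and 99.2 scaled CPM at 10 days, against 25.3, 29.4 and 38.2 at 8 days. The ages did not overlap, and the difference was 1.46 ± 0.19 on the log2 scale (SE, adjusted p = 0.0111, edgeR). APZ42_004383 had 40.2, 40.3 and 70.5 scaled CPM at 10 days, against 17.0, 20.1 and 24.5 at 8 days, again without overlap, a difference of 1.29 ± 0.25 (SE, adjusted p = 0.0491, edgeR). The call of APZ42_006565 was lost without replicate 2 or 3 of 8 days, and that of APZ42_004383 without any of 5 of the 6 libraries.

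At 15 to 18 days against 8 to 10 days, 10 of the 59 genes were lower and 0 higher (edgeR, adjusted p under 0.05), where 1.32% of all genes tested were lower and 0.273% higher. The median difference was -0.74 on the log2 scale for the 59 genes and 0.04 for all genes. APZ42_034236 had between 4.29 and 6.59 scaled CPM in the 6 libraries of 15 to 18 days, against 10.6 to 20.8 in the 6 of 8 to 10 days. The age ranges did not overlap, and the difference was -1.41 ± 0.20 (SE, adjusted p = 0.00443, edgeR). APZ42_021185 had between 4.72 and 10.98 scaled CPM at 15 to 18 days, against 11.2 to 26.2 at 8 to 10 days, again without overlap, a difference of -1.29 ± 0.23 (SE, adjusted p = 0.0165, edgeR).

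This count of 10 moved with single libraries. It was 1 to 6 without any of 9 of the 12 libraries, lowest without replicate 3 of 15 days, and without replicate 3 of 18 days 21 genes were lower and 1 higher. No gene of the 59 was called among the 9 libraries of the larger spike-in set, where 0 of all genes were lower, or with the set as a covariate, where 6 of all genes were. The median difference of the 59 genes was -0.66 in both of these fits. With library sizes set by spike-in RNA 0 of the 59 and 0 of all genes were called, and the median difference was -0.97 for the 59 genes and -0.11 for all genes.

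In the oldest males, at 38 to 40 days against 30 to 33 days, 0 of the 59 genes were called in either direction (edgeR, adjusted p under 0.05), where 0.0253% of all genes tested were higher and 0.00632% lower. At an unadjusted p under 0.05 there were 16 of the 59 genes, where 7.62% of all genes tested were, and DESeq2 called 1 of the 59 lower, where it called 0.289% of all genes lower. The differences were negative for 56 of 59 genes, with a median of -0.49 on the log2 scale beside -0.04 for all genes. Without replicate 3 of 33 days, which held the fewest counts of all libraries, 2 genes were lower.

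The genes differed in the male age at which they peaked. The highest mean in scaled CPM fell at 8 or 10 days for 34 genes, at 15 or 18 days for 9, at 28 days for 10 and at 30 or 33 days for 6. Of the 34 genes highest at 8 to 10 days, 31 fell with age in males, a count that the grouping itself shapes because it uses the same male values. The 10 genes highest at 28 days held 0 that fell and the 1 that rose. They also varied most among males of one age, with a median within-age SD of 0.69 on the log2 scale, where the 34 early genes had 0.47.

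These 10 genes shared a low at 35 days, where 9 of them had their lowest mean. Their summed level was 120.2, 205.2 and 223.2 scaled CPM in the 3 libraries of 28 days, 74.7, 78.0 and 103.9 at 30 days, and 93.0, 144.6 and 181.3 at 33 days. At 35 days the 3 libraries had 14.2, 26.0 and 38.1, below every other male library, and at 38 days 102.4, 118.1 and 119.0. APZ42_017540 weighs most in these sums, with a mean of 92.2 scaled CPM at 28 days, where the mean sum was 182.9. Of the 49 other genes, 2 had their lowest mean at 35 days, APZ42_001879 and APZ42_033778. The summed level of the 49, in which abundant genes weigh most, was 648.3 scaled CPM ± 144.3 at 35 days and 648.9 ± 34.3 at 28 days (SD, n = 3 each). The ages follow no single direction, and these groups were formed after the values were seen, so no test was made. Sampling dates and library batches are not in the labels used here, so a batch shared by the libraries of an age cannot be told apart from the age.

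APZ42_017570 and APZ42_029441 show the pattern in single genes. APZ42_017570 had 0, 0.667 and 1.00 scaled CPM in males of 35 days, against 6.19, 23.0 and 23.1 in males of 28 days. APZ42_029441 had 0, 0.101 and 1.53 scaled CPM at 35 days, against 14.0, 20.3 and 21.8 at 28 days. Neither gene's libraries of these 2 ages overlapped. For both genes these are the ages of the highest and the lowest male mean, so the choice of ages favours such a gap.

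**Figure D4:**
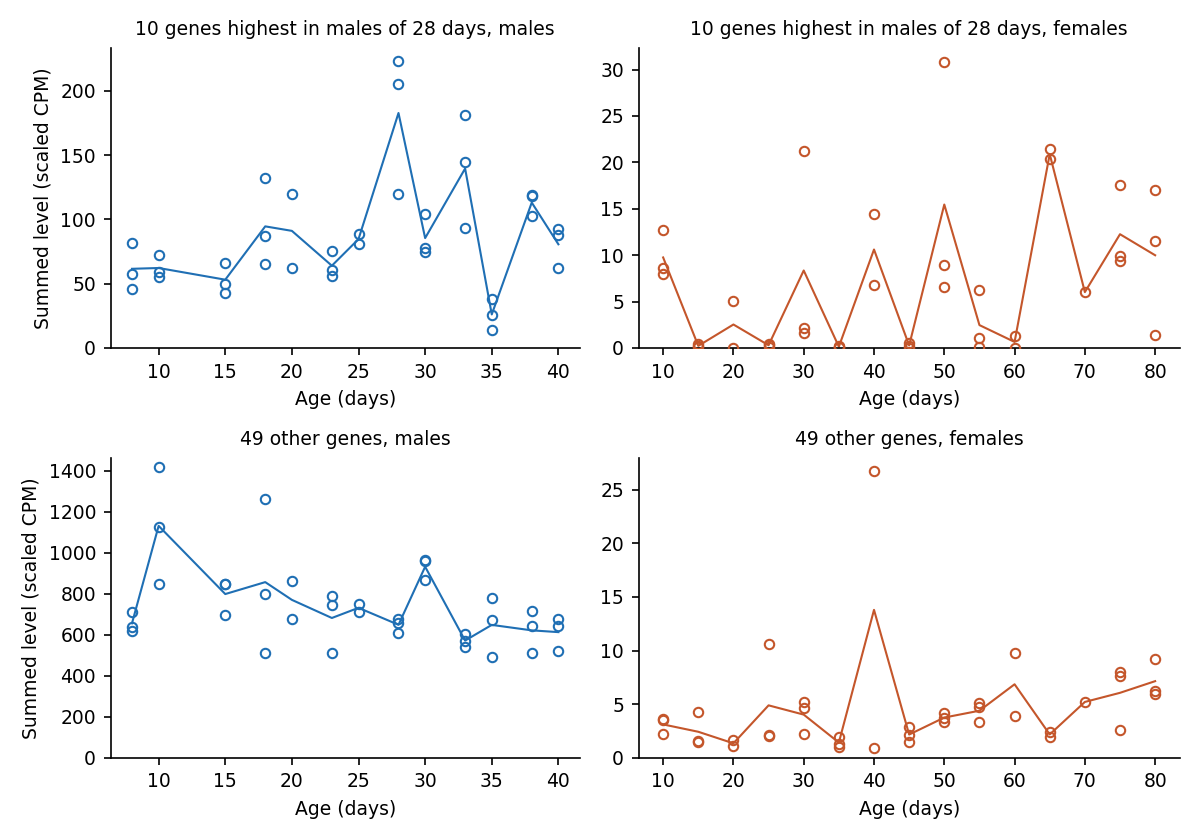
Summed level in scaled CPM against age in days of the 10 genes whose highest male mean was at 28 days (top) and of the 49 other genes (bottom), in males (left) and females (right). Circles are libraries, lines join the means of each age, and each panel has its own vertical scale from 0. The 10 genes are low in the 3 male libraries of 35 days (14.2 to 38.1) and vary from 0 to 30.8 in females.

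In females, the 59 genes were seen at a small share of their male level. The summed level was 1.11 scaled CPM in the lowest female library, 10.1 in the median one and 34.2 in the highest, which is 0.139% to 4.27% of the median male sum. A female library had counts for 4 to 49 of the 59 genes, with a median of 20. Of the 59 genes, 13 had a count in fewer than 10 female libraries and 26 reached 1 scaled CPM in at least 1 female library. A count of 0 allows a level of up to 0.108 to 1.34 CPM, depending on the library (3 counts of the total), so a gene at 0 was below detection and not shown to be absent.

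Older females had the higher sums, with overlap. The summed level was 15.1 scaled CPM ± 8.41 in females of 50 to 80 days, the late females (SD, n = 17), against 7.63 ± 8.61 at 10 to 45 days, the early females (SD, n = 22). The late females ranged from 3.90 to 34.2 with a median of 13.1, and the early females from 1.11 to 33.5 with a median of 3.89. At the youngest age, 10 days, the 3 libraries had 10.1, 12.2 and 16.3, which is within the range of the late females. Means by age followed no single direction. The lowest were 2.65 at 15 days, 1.56 at 35 days and 2.44 at 45 days. In mean level, 38 of the 59 genes were higher in females of 50 to 80 days than in those of 10 to 45 days. The median of the 59 late means was 0.099 scaled CPM, so many of them rest on few counts. The female libraries with the fewest counts were both late, replicate 2 of 75 days (2242215 counts) and replicate 2 of 65 days (5058275 counts). A single count weighs more in these libraries. Of the 59 genes, 6 had their highest female value in replicate 2 of 75 days, which held 38 counts of the 59 genes. The share of all genes with a higher late mean was not computed.

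A few genes made up much of the female signal. In females of 50 to 80 days, 3 genes held 44.4% of the summed level: APZ42_017570, APZ42_029441 and APZ42_004919. All 3 belong to the 10 genes highest in males of 28 days. Of those 10 genes, 8 reached 2 scaled CPM in a female library, against 5 of the 49 others, and 9 had a higher mean in late than in early females. In males these 3 genes were of modest level, with medians of 6.26, 7.90 and 2.09 scaled CPM.

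As a sum, the 10 genes were clearly seen in some female libraries and near 0 in others. A few of them weigh most, since means in late females ran from 0.202 scaled CPM for APZ42_017540 to 3.24 for APZ42_017570. The summed level of the 10 was 5 scaled CPM or more in 12 of 17 female libraries of 50 to 80 days and in 7 of 22 of 10 to 45 days. It was 7.92, 8.61 and 12.7 in the 3 libraries of 10 days. At 15, 25, 35 and 45 days no library exceeded 0.573, while at 40 days the 2 libraries had 6.79 and 14.4. The 3 libraries of 50 days had 6.602, 8.954 and 30.81, the 2 of 65 days 20.3 and 21.5, and the 3 of 75 days 9.39, 9.87 and 17.5. At 60 days the 2 libraries were low again, at 0 and 1.30, and at 80 days the 3 libraries ran from 1.41 to 17.0. As in the males of 35 days, low values shared by all libraries of an age cannot be told apart from a batch of sampling or library making.

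APZ42_017570 averaged 3.24 scaled CPM ± 3.38 in females of 50 to 80 days (SD, n = 17), against 0.906 ± 1.59 at 10 to 45 days (SD, n = 22). It had a count in 13 of the 17 late libraries and in 9 of the 22 early ones, and 10.8 scaled CPM in its highest library, replicate 2 of 80 days. In the same age group replicate 3 had 0. APZ42_029441 averaged 2.20 ± 4.11 in the late and 0.806 ± 2.44 in the early females. Its highest female library, replicate 3 of 65 days, had 15.7 scaled CPM, above the male median of 7.90.

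APZ42_004919 averaged 1.27 scaled CPM ± 1.49 (SD, n = 17) in late females and 0.330 ± 0.585 (SD, n = 22) in early ones. APZ42_027653 averaged 0.819 ± 0.989 in late and 0.386 ± 0.919 in early females, and its highest female value, 3.88, was at 30 days. APZ42_033778 averaged 0.738 ± 0.789 in late and 0.160 ± 0.284 in early females. For all 5 genes the late and early libraries overlapped, since both sets held libraries at 0.

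**Figure D5:**
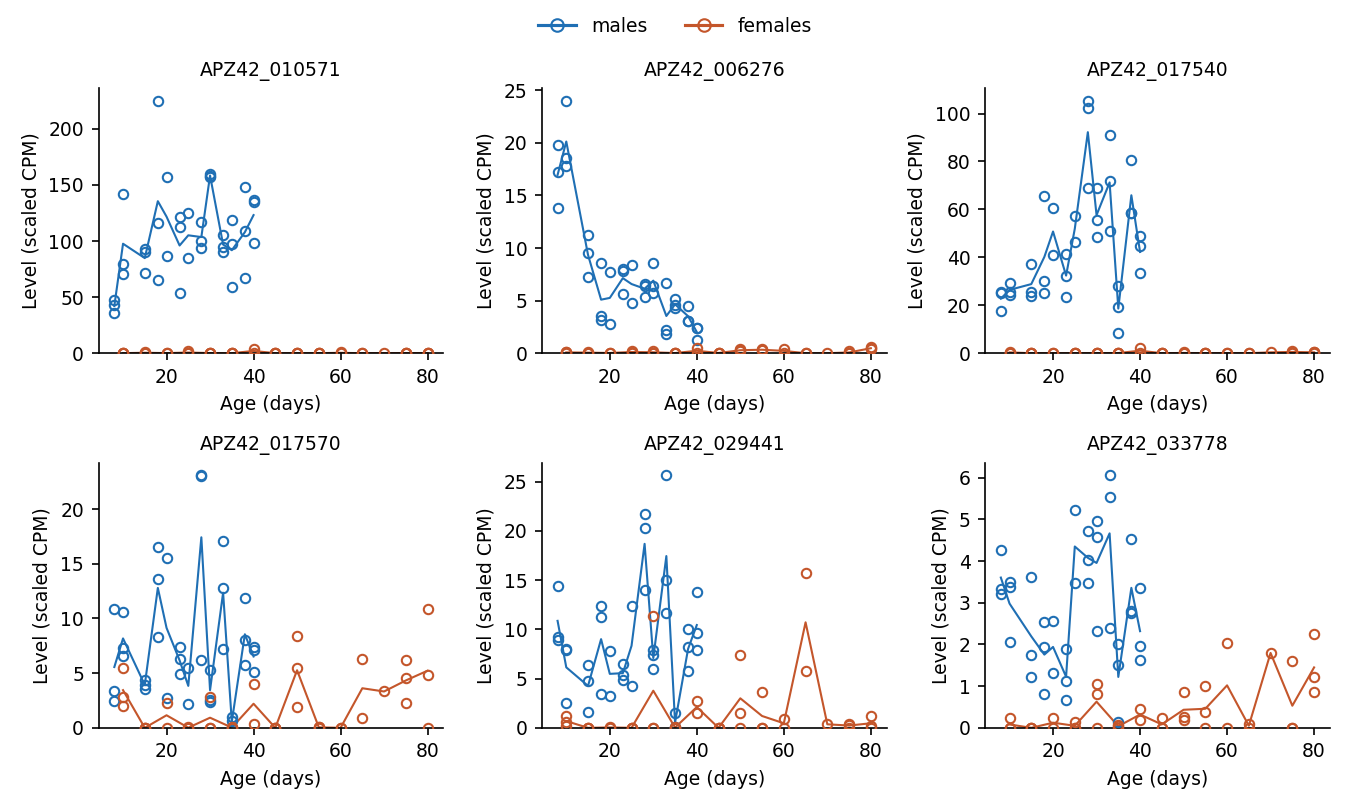
Level in scaled CPM against age in days of 6 of the genes in males and females. Circles are libraries, lines join the means of each age, and each panel has its own scale from 0. APZ42_010571, APZ42_006276 and APZ42_017540 are near 0 in females at every age, with at most 3.89, while APZ42_017570 reaches 10.8 and APZ42_029441 15.7 in a female library.

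The female library with counts for the most of these genes was replicate 2 of 40 days. It had counts for 49 of the 59 genes, and 17 of the 59 had their highest female value there. Its leading genes were APZ42_010571 at 3.89 and APZ42_019537 at 3.23 scaled CPM, which also lead in males. Spearman's rho between its levels and the male medians over the 59 genes, which share the library and are not independent replicates, was 0.69. The other 38 female libraries lay between -0.35 and 0.49. The summed level of the 49 genes outside the 28-day group was 26.7 scaled CPM in this library and 0.891 in the other library of 40 days. These values describe the library, and their source was not tested.

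Tests of age in females could be made for few of the genes. Only 7 of the 59 passed the filter on low counts for the slope over the 39 female libraries, and a gene passes through the libraries where it is high. Of these, 1 rose and 0 fell (edgeR, adjusted p under 0.05), where 21.8% of all genes tested rose and 20.1% fell. With library sizes set by spike-in RNA these shares were 2.45% and 54.3%, and 1 of the 7 genes still rose. With no filter 4 of 59 genes rose and 0 fell, where 16.1% of all genes rose and 15.5% fell. With DESeq2 4 of the 49 genes tested rose and 0 fell, where 21.5% of all genes rose and 15.8% fell. Both counts are, as shares, below the shares of all genes that rose. The female limit of the choice keeps these genes at few counts, which makes a call less likely, so nothing is read from this. The gene called was APZ42_033778, with 319 female counts, of which 253 lay in late libraries. It had a count in 12 of 17 late and 10 of 22 early female libraries, and since the filter admitted it through the libraries where it is high, the call is not read as support for a rise. Its slope was 0.58 ± 0.15 log2 per 10 days (SE, adjusted p = 0.00208, edgeR), and 0.57 with no filter, where all 59 genes were tested (adjusted p = 0.00472, edgeR). It did not pass the filter when replicate 1 or 2 of 30 days, replicate 2 of 40 days or replicate 1 of 50 days was left out. In the last 3 of these fits no gene of the 59 was called.

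In the comparison of females of 50 to 80 days with those of 10 to 45 days, 1 of the 59 genes passed the filter and 0 were called (edgeR, adjusted p under 0.05), where 24% of all genes tested were higher and 20.9% lower. With spike-in library sizes these shares were 3.66% and 43.2%, and again 0 were called. The gene tested was APZ42_017570, which was 1 of 1 at an unadjusted p under 0.05. Its median was 2.24 scaled CPM in late females and 0 in early ones, and since it passed the filter through libraries where it is high, nothing is read from its test. With no filter 6 of 59 genes were higher and 4 lower, where 17.3% of all genes were higher and 16.2% lower. With DESeq2 6 of 51 were higher and 0 lower, where 21.0% of all genes were higher and 16.3% lower. In both fits the share of the chosen genes that were higher is below that of all genes, and again nothing is read from this. The female limit of the choice holds every gene under 0.1 CPM in at least 20 of the 39 female libraries, so these comparisons rest on few libraries with counts.

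The slopes of the sexes were set against each other in 1 model of sex, age and their product over all 76 libraries. All 59 genes passed its filter, but only 7 passed in females alone, and the choice of genes holds the female median under 0.1 CPM. The female slope was thus hardly measured, and the counts that follow describe this fit and are not read as a difference between the sexes. For 17 of the 59 genes the male slope was lower than the female slope, and for 0 it was higher (edgeR, adjusted p under 0.05), where 7.53% of all genes tested were lower and 4.54% higher. With spike-in library sizes 6 of the 59 were lower and 0 higher, where 0.785% of all genes were lower and 5.56% higher. For APZ42_006276 the fitted difference of slopes was -1.14 log2 per 10 days ± 0.16 (SE, adjusted p = 2.38e-07, edgeR). That gene reached 24.0 scaled CPM in a male library, against at most 0.568 in a female one. For APZ42_001733 the difference was -0.89 ± 0.17 (SE, adjusted p = 8.86e-05, edgeR), with 11 female counts in 5 libraries, and the call was lost without replicate 3 of the 80-day females. Without the males of 8 and 10 days 4 genes were called lower, where 2.69% of all genes tested were lower.

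The authors' deposited tables list results for the same genes from the same series of samples and are no independent check. For the age effect, in the authors' deposited table, 14 of the 57 genes with an adjusted p were positive and 0 negative below 0.05, where 24.3% of all its genes were positive and 18.2% negative. In their table for the sex by age interaction, which the authors deposited with it, 0 were positive and 25 negative, where 5.92% and 9.34% of all its genes were. The sources used here do not give the model behind these columns.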

How the data were processed

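Whole-number counts per gene ID were taken as the authors deposited them, not normalised. Per the submitters' processing notes, the tools include TopHat2 2.1.1 and DESeq2 1.20. Genome build, annotation, counting tool and strandedness are each not given in the sources used here. Also, the authors deposited tables of effects of age, of sex and of their interaction, which per the file headers hold a log2 change and an adjusted p-value per gene. Sample titles gave sex, age and replicate number. From 80 columns, 3 that the labels mark as mislabelled were left out and 2 technical runs of 1 male 10-day sample were summed, which left 76 libraries. The 7 spike-in rows (0.217% to 2.31% of the counts of a column) entered neither tests nor library sizes, apart from the alternative that sets library sizes by them.

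CPM by total count served the choice of genes. The main test was that of edgeR 4.0.16 on counts, run in R 4.3.3 (TMM, filterByExpr, quasi-likelihood F-test) over all genes, and adjusted p-values follow Benjamini-Hochberg at 0.05. Slopes are log2 changes per 10 days, and their SE was computed as |log2 change| over the square root of F. The spike-in sets divide all 76 libraries (48 and 28) by the ratio of SIRV7 to SIRV1 at its widest gap. Only in the search for that gap were 10% of libraries at each end left aside. As alternatives served scaling by relative log expression, no filter, DESeq2 1.42.0, a replicate block, either technical run, spike-in library sizes, the abundant genes or the 3 shallowest libraries left out, the spike-in sets, and each library left out in turn. The fits were checked on simulated counts.

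Named were the 8 genes with the highest male median, up to 2 called genes per direction and comparison with the smallest adjusted p, the 5 with the highest mean in females of 50 to 80 days, and those nearest the limits. Other genes named were chosen after their values were seen. The genes, comparisons and named groups were chosen with earlier results of these data known. Limits of detection cover counting error only. Figures were drawn with matplotlib 3.10.9.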

Additional observations from a re-analysis of the deposited data

Results flagged for a closer look

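The excluded library titled as a female of 20 days, which the labels mark as mislabelled and no comparison uses, had counts for all 59 genes. Its summed level of 920.6 CPM lay within the range of the male libraries, 236.7 to 1839 CPM, where the 39 female libraries had at most 44.3 CPM. The library was flagged because a signal appeared in data outside the comparisons.

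In the fit of both sexes, 17 of the 59 genes were marked because their slope with age was lower in males than in females (edgeR, adjusted p under 0.05 over 17706 genes), where 7.53% of all genes tested were lower. Only 7 of the 59 genes passed the filter on low counts in females alone, so the female slope was hardly measured and these calls are not read as a difference between the sexes. For APZ42_006276 the difference was -1.14 log2 per 10 days (adjusted p = 2.38e-07, edgeR), and it kept its call without any 1 library. That gene did not pass the filter in females alone and reached at most 0.568 scaled CPM in a female library. Its slope in the males alone was -0.78 log2 per 10 days, smaller in size than the fitted difference. Of its 111 female counts, 79 lay in females of 50 to 80 days. With no filter it was called higher there than at 10 to 45 days (log2 difference 1.64, adjusted p = 0.0370, edgeR). Its slope with age in females was not called in that setting. How far the kept call rests on the values of either sex was not tested. For APZ42_001733 it was -0.89 (adjusted p = 8.86e-05, edgeR), from 11 counts in 5 of the 39 female libraries.

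No group of libraries of 1 sex and age held more than 3 libraries, so single libraries were not tested for standing apart.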

How the results depend on the processing

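For age in males, 11 genes were called (1 rising, 10 falling) within the smaller spike-in set and 16 (all falling) without the males of 8 and 10 days, and 32 to 36 when each library was left out. At 15 to 18 against 8 to 10 days, DESeq2 called 22 and the replicate block 2, with a median difference of -0.74 under the block as without it. Spike-in library sizes, the spike-in set as a covariate and the larger set alone each called 0. Leaving out each library gave 1 to 22. At 38 to 40 against 30 to 33 days, DESeq2 called 1, the fit without shallow libraries 2, and leaving out each library 0 to 2. For age in females, no filter and DESeq2 called 4 each, either spike-in set alone 0, and leaving out each library 0 to 2. At 50 to 80 against 10 to 45 days, no filter called 10 (6 higher, 4 lower), DESeq2 6, the replicate block 1, the fit without abundant genes 1, and leaving out each library 0 to 1. For the difference of slopes, spike-in sizes called 6, the larger set 6 and the fit without males of 8 and 10 days 4, all lower, and the smaller set 7 (6 lower, 1 higher). Leaving out each library gave 12 to 20. At 10 against 8 days, no filter called 4, DESeq2 14, the replicate block 0 and leaving out each library 0 to 7. Spike-in sizes reversed that comparison, to 4 lower and 0 higher. They moved the median of all genes to -0.82, beside -0.32 for the 59 genes, so that the 59 genes stood above all genes there too. They moved it by -0.53 at 50 to 80 days in females, and by -0.15 to 0.13 in the other 4 comparisons they moved by over 0.1. In the other 54 cases counts stayed within 1.5 times and summed levels within 1 SD. The cause of these changes was not tested.

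The number of genes chosen was 46 with a female limit of 0.05 CPM, 91 with 0.2, 100 with a male limit of 1 CPM, 30 with 4, 65 by scaled CPM and 71 with abundant genes left out. Leaving out each library gave 56 to 64, of which at least 56 were among the 59.

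Replicate numbers did not pair the libraries. Deviations from the age means correlated by 0.0018 on average between male libraries of 1 number and by -0.00081 between other numbers, and 13 of 37 male libraries correlated best with their own number (8 of 38 in females). With the replicate block 34 genes fell and 1 rose with age in males, as without it.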
